A study of Mus musculus with 2 samples.

Results

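The ephrin, Slit and netrin guidance systems were described as 43 genes of 43346 mouse gene rows, among 21475 protein-coding genes. The members were the ephrins and their Eph receptors, the Slits and Robo1 to Robo3, the netrins with Dcc, neogenin and the Unc5 receptors, and the RGM proteins, netrin-Gs and draxin, all chosen by name. Every member had a row. Of these, 42 were found by gene ID, and Ntn3 through its only annotated transcript.

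RNA came from the facial prominence of B6NCrl mouse embryos at 12.5 days, healthy and of both sexes, with no mutation or treatment given. The only group held 2 libraries: replicate 1, from 120 pooled embryos, had 27890681 expected counts, and replicate 2, from 88 pooled embryos, had 39969716. There was therefore no contrast between conditions, and the questions were which ligands and receptors the tissue expressed, at what relative level, and how far the pools differed. No p-value is given. Levels are in TPM, a count divided by the length of the transcript that reads can cover and scaled to the same total in each library. Means carry the SD over the libraries (n = 2), and whether the pools were dissected on separate days the labels do not say.

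Eph receptors are receptor tyrosine kinases whose ligands, the ephrins, sit in the membrane of a neighbouring cell. Ephrin-As are held by a lipid anchor and ephrin-Bs span the membrane, so that a signal can pass into either cell. Slits are large secreted proteins that act through Robo receptors, and netrins are laminin-like secreted proteins that act through Dcc, neogenin and Unc5 receptors. All are known as guides of growing axons. In the face, ephrin-B signalling is known for the boundaries of neural crest mesenchyme and for the palate, and loss of EFNB1 in humans causes craniofrontonasal syndrome.

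Of the 43 members, 40 reached 1 TPM in both libraries (93.0%), where 61.8% of all protein-coding genes did. A mean of 10 TPM or more was found for 25 members (58.1%), beside 42.4% of protein-coding genes. The median of the members' mean levels was 13.8 TPM, and that of all protein-coding genes was 5.24 TPM. The members together held 0.248% of the counts in replicate 1 and 0.250% in replicate 2. The members under 1 TPM in either library were Ntn4, Ntn5 and Ntng2, and all had more than 3 counts in both libraries. In whole tissue, fewer cells of a type and less RNA per cell cannot be told apart.

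**Figure D1:**
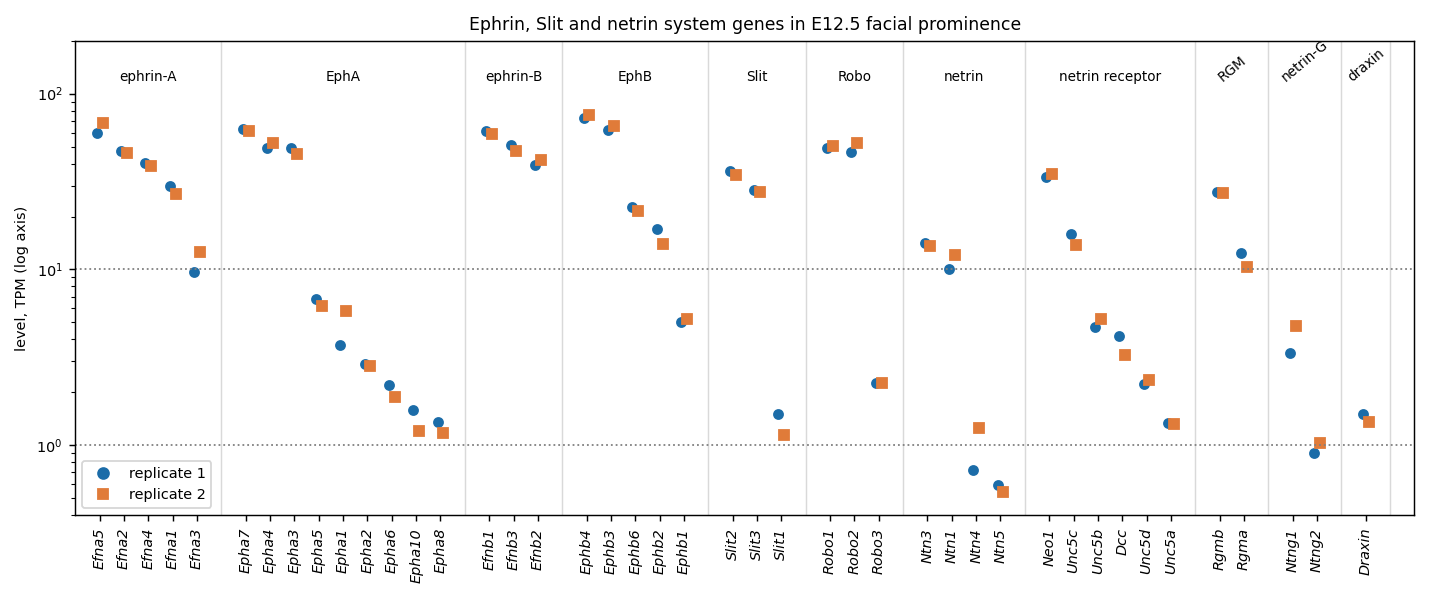
Level of each of the 43 members in TPM (log axis), replicate 1 as circles and replicate 2 as squares, ordered by family and by mean level, with dotted lines at 1 and 10 TPM. The ephrins lie within a narrow band (Efna3 lowest at 9.67 and 12.6 TPM), whereas the Eph receptors of each class, the Slits, Robos, netrins and netrin receptors each hold members more than 10-fold apart.

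All 5 ephrin-A ligands had a mean of 10 TPM or more, with sums of 187 TPM (replicate 1) and 192 TPM (replicate 2). Efna5, a ligand of EphA receptors in topographic axon maps (chromosome 17, 62604184 to 62881317, GRCm38), led with 60.02 and 68.2 TPM in replicates 1 and 2. Efna2 had 47.2 and 45.99 TPM, and Efna4 had 40.5 and 38.8 TPM. Efna1, known for its expression in vessels and epithelia, had 29.9 and 26.9 TPM, and Efna3 was lowest with 9.67 and 12.6 TPM. No neighbours in this order overlapped between the libraries. Efna1, Efna3 and Efna4 lie beside each other on chromosome 3, between 89271733 and 89338028 and had different levels in each library. Efna3 shares 344 of 2434 exon bases, and Efna4 168 of 1599, with antisense genes listed at under 1 TPM. In those bases alone the reads cannot be told apart, since the labels do not say whether strand was kept.

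The EphA receptors were divided into 3 abundant genes and 6 scarce ones. Epha7 had 62.9 and 61.7 TPM (chromosome 4, 28813131 to 28967499), Epha4 had 49.4 and 52.1 TPM (chromosome 1, 77367185 to 77515088), and Epha3 had 49.4 and 45.5 TPM (chromosome 16, 63543534 to 63864175). These 3 receptors held 89.7% of the summed EphA level in replicate 1 and 89.3% in replicate 2. Their order depended on the transcripts summed. In protein-coding transcripts alone, Epha3 led with 49.37 and 45.45 TPM. Epha7 then had 32.15 and 30.86 TPM, and Epha4 had 26.89 and 35.29 TPM. Epha4 is the EphA receptor that also binds ephrin-Bs. Epha5, known from the nervous system, had 6.76 and 6.18 TPM.

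The other EphA receptors lay under 6 TPM. Epha1, a receptor of epithelia, had 3.72 and 5.80 TPM. Its exons share 236 bases with those of Zyx on the opposite strand, a gene with 80.4 and 82.4 TPM, so its value is uncertain. Epha2, also an epithelial receptor, had 2.90 and 2.81 TPM. The neural receptor Epha6 had 2.21 and 1.89 TPM. Epha10, which lacks kinase activity, had 1.58 and 1.20 TPM, and Epha8 had 1.36 and 1.17 TPM. In TPM of all transcripts, Epha10 and Epha8 overlapped between the libraries, and all other neighbours in the order did not.

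The Epha7 transcripts were shown separately because a shortened receptor is made from this gene. Epha7-201 encodes the full receptor of 998 codons and Epha7-202 a form of 610 codons, which ends before the kinase domain. The transcripts share 1798 coding bases up to base 28943378 of chromosome 4 and then part, Epha7-202 reading on through 32 coding bases of its own. Around that point, with shared bases in lower case and the bases after the parting in capitals, the coding strands read as follows, from the GENCODE M21 transcripts (GRCm38, plus strand).
Epha7-201: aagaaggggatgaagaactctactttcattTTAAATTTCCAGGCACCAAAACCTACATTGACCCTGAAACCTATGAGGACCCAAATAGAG
Epha7-202: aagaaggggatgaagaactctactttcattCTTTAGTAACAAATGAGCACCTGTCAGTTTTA

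The short form Epha7-202 had 6.76 and 7.21 TPM in replicates 1 and 2, and the full form Epha7-201 had 19.2 and 20.0 TPM. Epha7-202 thus held 26.1% and 26.5% of the level of these 2 transcripts, a log2 ratio of -1.49 ± 0.02 to Epha7-201. Epha7-202 was singled out after its values were seen, and these shares cover only the pair. A second short coding form, Epha7-204 of 626 codons, had 3.58 TPM in replicate 1 and 0 in replicate 2, and a second full-length form, Epha7-203 of 994 codons, had 2.64 and 3.69 TPM. Over all 4 coding forms the short ones held 32.2% of the level in replicate 1 and 23.4% in replicate 2, so the share was less even than in the pair. The transcript with the most TPM was neither of them but Epha7-208, annotated as a processed transcript without a coding region, with 36.7% and 30.8% of the gene. By reads, Epha7-201 led with 51.6% and 54.6% of the counts.

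All 3 ephrin-B ligands were well expressed, with summed levels of 152 and 148 TPM. Efnb1 (chromosome X, 99136130 to 99148991) had 61.0 and 58.6 TPM, Efnb3 had 51.3 and 47.1 TPM (chromosome 11, 69554092 to 69560205), and Efnb2 had 39.3 and 41.9 TPM (chromosome 8, 8617434 to 8661242). The order Efnb1, Efnb3, Efnb2 was the same in both libraries, with no overlap. Efnb2 is the ephrin of arteries.

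The coding ends of the ephrin-Bs are printed because ephrin-Bs signal back through this tail, whose last residues bind PDZ-domain proteins. The lines give the last 99 coding bases before the stop codon, with capitals at the 77 bases identical in all 3 genes, from the GENCODE M21 transcripts (GRCm38). They lie at chrX:99147426-99147524 on the plus strand for Efnb1, at chr8:8620591-8620689 on the minus strand for Efnb2 and at chr11:69555863-69555961 on the minus strand for Efnb3.
Efnb1-201: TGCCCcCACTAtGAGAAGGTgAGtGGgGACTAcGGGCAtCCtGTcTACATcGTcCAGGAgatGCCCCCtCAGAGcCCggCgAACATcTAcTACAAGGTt
Efnb2-201: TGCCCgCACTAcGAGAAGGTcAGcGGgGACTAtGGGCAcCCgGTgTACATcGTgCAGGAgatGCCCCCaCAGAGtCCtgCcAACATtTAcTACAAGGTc
Efnb3-201: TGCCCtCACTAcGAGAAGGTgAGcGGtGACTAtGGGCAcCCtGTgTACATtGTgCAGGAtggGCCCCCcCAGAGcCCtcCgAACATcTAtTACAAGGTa

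Of the 22 bases that differ among these ends, 19 are at the third codon position. Pairs of ends were identical at 82 to 84 of 99 bases. Nearly all of each gene's level was in the transcript printed, with 98.3% and 98.8% of the Efnb1 TPM in Efnb1-201 and all of the TPM of Efnb2 and Efnb3 in Efnb2-201 and Efnb3-201.

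Among the EphB receptors, Ephb4 was the most abundant of all 43 members. It had 72.4 and 75.6 TPM (chromosome 5, 137350109 to 137378669), a level above that of 89.2% of protein-coding genes. Ephb4 is the venous receptor of ephrin-B2, and Efnb2 lay below it by a log2 ratio of -0.87 ± 0.02. Ephb3 had 62.5 and 65.4 TPM (chromosome 16, 21204755 to 21223305). Ephb6, which lacks kinase activity, had 22.6 and 21.4 TPM. Ephb2 had 17.1 and 14.0 TPM (chromosome 4, 136647539 to 136835988), and Ephb1 had 5.00 and 5.24 TPM.

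Ephb2 and Ephb3 act together in closure of the mouse palate, and their levels stood far apart. Ephb2 was 4.13-fold lower than Ephb3, a log2 ratio of -1.87 in replicate 1 and -2.22 in replicate 2 (mean -2.05 ± 0.25). Efnb1, which binds both, was 3.86-fold higher than Ephb2 (log2 ratio 1.95 ± 0.16) and close to Ephb3 (log2 ratio -0.10 ± 0.09). A ratio was called when it was over 1 or under -1 in both libraries. By that rule both ratios with Ephb2 were called and that of Efnb1 to Ephb3 was not.

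The A-class pairs lay closer together and none was called. Efna5 over Epha4 gave a log2 ratio of 0.33 ± 0.07, Efna5 over Epha3 gave 0.43 ± 0.21, and Epha4 over Epha7 gave -0.30 ± 0.07. Efnb1 over Efnb2 gave 0.56 ± 0.11. In counts not divided by length, the Efna5 to Epha3 ratio became -0.09, and in transcripts of the GENCODE basic set the Efna5 to Epha4 ratio was 1.33.

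**Figure D2:**
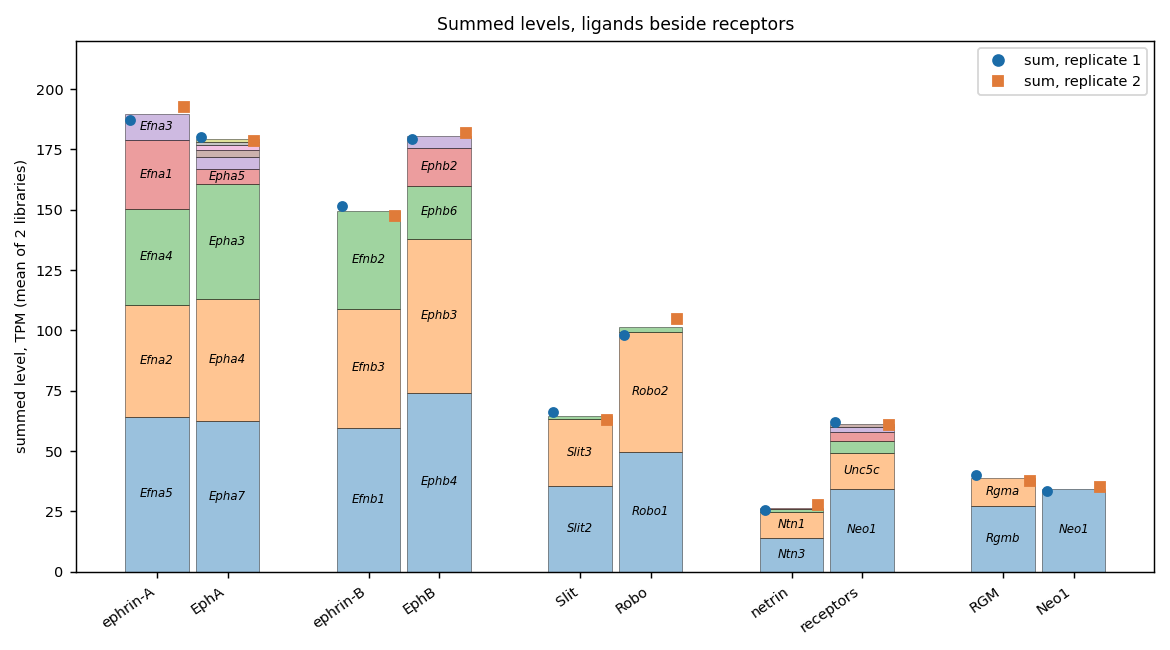
Summed level in TPM of the ligands (left bar of each pair) and receptors (right bar) of 5 systems, with 1 segment per gene at its mean over the libraries and points at the sum in each library. Ephrin-A and EphA sums lie close together (190 and 179 TPM), whereas the netrin sum (26.5 TPM) stands well under that of its receptors (61.4 TPM).

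Summed over the classes, ephrin-A ligands came to 190 ± 3.71 TPM and EphA receptors to 179 ± 1.29 TPM. Their log2 ratio was 0.06 in replicate 1 and 0.11 in replicate 2 (mean 0.08 ± 0.04) and was not called. This near-balance depended on the quantity summed. With protein-coding transcripts alone, the ratio was 0.61, with EphA receptors at 124 TPM, and in counts not divided by length it was -0.81. Ephrin-B ligands came to 150 ± 2.86 TPM and EphB receptors to 181 ± 1.56 TPM. Their ratio of -0.27 ± 0.04 kept its sign in every alternative run, but was only -0.085 without the kinase-inactive Ephb6 (-0.050 in replicate 1 and -0.12 in replicate 2).

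Signalling partners of Ephs and ephrins were mostly detected in the tissue. Of 32 listed genes, 31 were at 1 TPM or more in replicates 1 and 2 (96.9%, beside 61.8% of protein-coding genes). The median of their mean levels was 22.9 TPM. Sdcbp, which encodes the PDZ protein syntenin that binds ephrin-B tails, had 226 and 229 TPM. The adaptor Crk had 112 and 117 TPM, and Adam10, a protease that cuts ephrins, had 61.9 and 67.1 TPM. The lowest were Ngef, an exchange factor bound by Epha4, with 1.52 and 1.62 TPM, and the scaffold gene Grip2 with 0.81 and 0.68 TPM.

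The Slit system rested on 2 ligands and 2 receptors. Slit2 had 36.5 and 34.2 TPM (chromosome 5, 47983138 to 48307733) and Slit3 had 28.3 and 27.6 TPM (chromosome 11, 35121224 to 35708507). Slit1, which is mainly neural, had 1.51 and 1.14 TPM. Slit2 and Slit3 together held 97.7% of the Slit level in replicate 1 and 98.2% in replicate 2. Robo1 had 49.0 and 50.4 TPM and Robo2 had 46.7 and 52.2 TPM. Robo1 (72308306 to 73046095) and Robo2 (73891839 to 74411825) follow each other on chromosome 16. Robo3, a divergent receptor of midline-crossing axons, had 2.27 and 2.26 TPM. Robo1 and Robo2 overlapped between the libraries, with a log2 ratio of 0.07 in replicate 1 and -0.05 in replicate 2.

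Slits summed to 64.7 ± 2.34 TPM and Robo receptors to 101 ± 4.94 TPM. The log2 ratio of Slits over Robos was -0.56 in replicate 1 and -0.74 in replicate 2 (mean -0.65 ± 0.12), short of the threshold. It passed the threshold with protein-coding transcripts alone, at -1.41, with basic-set transcripts, at -1.16, and in counts not divided by length, at -1.26. The pair ratios followed, with -0.49 ± 0.09 for Slit2 over Robo1 and -0.83 ± 0.05 for Slit3 over Robo1, which became -1.87 and -1.74 in protein-coding transcripts. Slit2 over Slit3 was 0.34 ± 0.04 in all transcripts and -0.13 in protein-coding ones, so no order of these ligands held on both.

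The shifts in protein-coding and basic-set transcripts went with the annotated transcript types. The ratio in counts not divided by length is taken over all transcripts and does not depend on their type. Of 27 members with a mean of 5 TPM or more, 18 had at least 90% of their TPM in protein-coding transcripts in both libraries. Slit2, Slit3, Epha5 and Epha7 had under 60% in both. For Slit2, the retained-intron transcript Slit2-207 held 42.9% and 46.4% of the TPM, and the coding transcript Slit2-202, with 1533 codons, held 34.8% and 34.9%. By reads the order was turned, as Slit2-202 had 53.7% and 53.4% of the counts and Slit2-207 31.0% and 33.3%. For Slit3, the coding transcript Slit3-201 held 53.1% and 53.5% of the TPM and 91.8% and 92.8% of the counts. The processed transcript Slit3-204, of 459 bases, held 36.4% and 40.4% of the TPM on 4.43% and 4.92% of the counts.

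**Figure D3:**
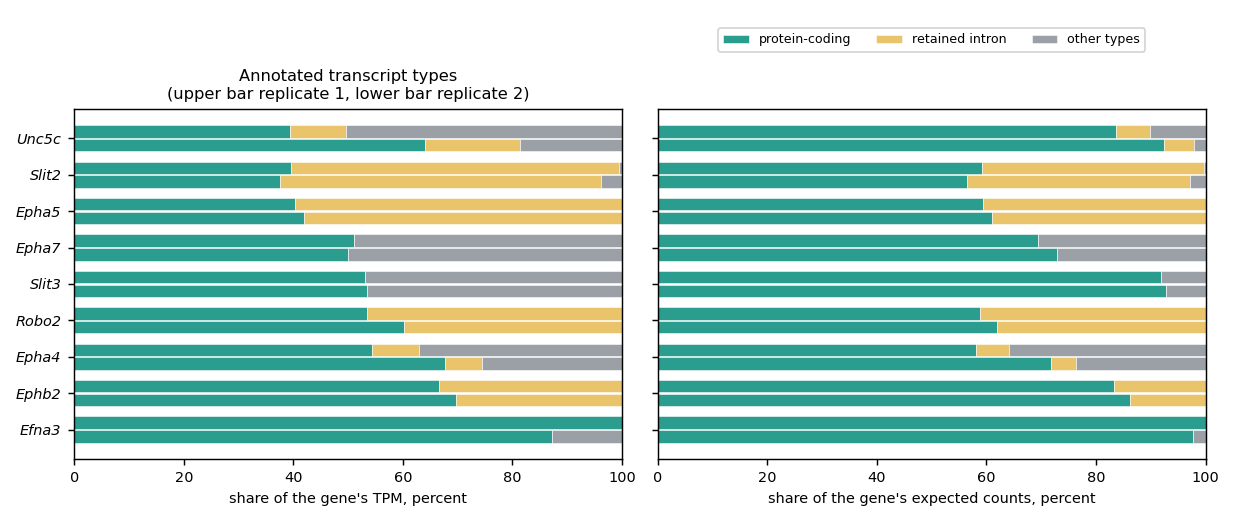
Share of each gene's TPM (left panel) and of its expected counts (right panel) in percent by annotated transcript type, for the 9 members with a mean of 5 TPM or more and under 90% of TPM in protein-coding transcripts in either library. The upper bar of each gene is replicate 1 and the lower bar replicate 2. The protein-coding share of Slit3 is 53.1% of TPM and 91.8% of counts in replicate 1.

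Robo2 was likewise led by a retained-intron transcript. Robo2-209 held 40.6% and 34.97% of the TPM, and Robo2-202, which encodes 1377 codons, held 20.6% and 22.6%. Robo1 has 1 transcript row, with 1612 codons. The log2 ratio of Robo1 over Robo2 was 0.01 in all transcripts and 1.71 in basic-set ones. In protein-coding transcripts it was 0.83 (0.97 in replicate 1 and 0.68 in replicate 2) and not called. The basic set is that of GENCODE M21, whereas the levels were estimated on M4. Robo2-201, which is not in the basic set, has 4764 bases as quantified and 886 in M21. Among Eph receptors, Epha5-207 (retained intron) held 51.7% and 52.4% of Epha5, and Ephb2-204 (retained intron) held 33.4% and 30.3% of Ephb2, behind Ephb2-201 with 42.2% and 46.7%. Epha4-201, with 986 codons, held 43.2% and 52.2% of Epha4. Whether these rows measured unspliced RNA was not tested.

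Most other members of 5 TPM or more were led by a protein-coding transcript with nearly all of the level. Efna1-201, Efna2-201, Efna4-201, Epha3-201, Neo1-201, Ntn3-201 and Rgmb-201 held all of it in both libraries. Efna5-201 held 98.0% and 97.9% and Ephb3-201 held 92.8% and 95.5%. Shares were lower and less even between the libraries for Ephb4-201 (79.8% and 90.2%), Ephb6-201 (73.2% and 82.1%), Ephb1-201 (67.3% and 81.7%), Ntn1-201 (84.1% and 76.8%) and Rgma-204 (55.4% and 81.6%). Efna3-201 held all of the level in replicate 1 and 87.2% in replicate 2.

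Every one of 14 listed Slit and Robo partners reached 1 TPM in both libraries, beside 61.8% of protein-coding genes, with a median of 18.4 TPM. Gpc1, a heparan sulfate proteoglycan that binds Slits, had 66.2 and 67.3 TPM. Vasp, of the actin-regulating Ena/VASP family, had 56.5 and 57.1 TPM, and Dag1, the Slit-binding dystroglycan, had 43.3 and 44.2 TPM. The lowest were Robo4, the endothelial Robo, with 6.49 and 6.05 TPM, and the Ras exchange factor Sos1, with 5.74 and 4.82 TPM.

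Summed netrin levels were low next to the summed receptors, of which Neo1 held the largest part. Ntn1, the main secreted netrin (chromosome 11, 68209364 to 68400823), had 10.1 and 12.1 TPM. Ntn3 (chromosome 17, 24203848 to 24209531) had 14.1 and 13.5 TPM and so lay above Ntn1 in both libraries. It shares 89 of its 5109 exon bases with exons of Tbc1d24 on the same strand, a gene with 4.84 and 5.52 TPM, and 1715 lie within the span of that gene, introns included. The part of Tbc1d24 RNA in the Ntn3 value was not tested. Ntn4, a laminin-related netrin of basement membranes, had 0.72 and 1.26 TPM from 38 and 47 counts. Ntn5 had 0.59 TPM in replicate 1 (95% exact Poisson interval 0.338 to 0.957) and 0.54 TPM in replicate 2 (0.333 to 0.827), with 519 exon bases shared with Sec1. Such intervals cover counting error only.

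Among the netrin receptors, neogenin stood first. Neo1 (chromosome 9, 58874687 to 59036441) had 33.5 and 35.02 TPM, or 54.1% and 57.6% of the summed receptors. Unc5c, a receptor of netrin repulsion, had 16.0 and 13.7 TPM, and Unc5b, known from vessels, had 4.69 and 5.20 TPM. Dcc, the receptor of netrin attraction in commissural axons, had 4.16 and 3.25 TPM. Unc5d had 2.24 and 2.36 TPM and Unc5a had 1.34 and 1.32 TPM. No neighbours in this order overlapped between the libraries.

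The netrins summed to 26.5 ± 1.41 TPM and their receptors to 61.4 ± 0.721 TPM. The log2 ratio was -1.28 in replicate 1 and -1.15 in replicate 2 (mean -1.21 ± 0.09), with the netrins 2.32-fold lower. Of the 5 system ratios it alone was called. Without Ntn3 it was -2.29. Without Ntn3 and Neo1, the most abundant ligand and receptor, it was -1.32 in replicate 1 and -0.89 in replicate 2, and no longer called. The call leaned on Neo1, also the receptor of the RGM system. Neo1 alone had 33.5 and 35.02 TPM in replicates 1 and 2, above the netrin sums of 25.5 and 27.5 TPM. The receptor sums of 61.9 and 60.9 TPM included these Neo1 levels. The ratio without Neo1 alone was not computed. The ratio without both genes also leaves out the most abundant netrin, so it does not show what Neo1 alone contributed.

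Set against single receptors, Ntn1 was 3.10-fold lower than Neo1 (log2 ratio -1.63 ± 0.15). It was 3.00-fold higher than Dcc (log2 ratio 1.59 ± 0.44) and 2.23-fold higher than Unc5b (log2 ratio 1.16 ± 0.09). Neo1 over Dcc gave the widest called pair, 9.31-fold (log2 ratio 3.22 ± 0.30). Unc5b over Unc5c was -1.58 ± 0.26, and with protein-coding transcripts alone it was -0.59 and not called. Ntn1 over Unc5b was also not called in counts not divided by length (0.87), in basic-set transcripts (0.84) or with 1 TPM added (1.02, with 0.96 in replicate 1).

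Neogenin is also the receptor of the RGM proteins. Rgmb had 27.6 and 27.3 TPM (chromosome 17, 15803188 to 15831039) and Rgma had 12.4 and 10.3 TPM (chromosome 7, 73375509 to 73419899). Rgma was 2.43-fold lower than Rgmb (log2 ratio -1.28 ± 0.18). Together they came to 38.7 ± 1.73 TPM, against 34.3 ± 1.08 TPM of Neo1, a log2 ratio of 0.18 ± 0.11. In counts not divided by length the ratio was -1.29, as Neo1 has the longer transcript. Draxin, a secreted antagonist that binds Dcc, had 1.51 and 1.36 TPM and lay under Dcc by a log2 ratio of -1.36 ± 0.15, or -0.94 with 1 TPM added.

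The netrin-Gs are lipid-anchored relatives of netrins that bind other partners at synapses. Ntng1 had 3.36 and 4.79 TPM, and its partner Lrrc4c had 3.91 and 3.27 TPM. Ntng1 over Lrrc4c changed sign between the libraries, with a log2 ratio of -0.22 in replicate 1 and 0.55 in replicate 2. Ntng2 had 0.90 and 1.03 TPM from 21.1 and 32.7 counts, beside 0.59 and 0.72 TPM of its partner Lrrc4. Part of the Ntng2 exons, 558 of 3990 bases, is shared with a same-strand gene that had 1.06 and 1.04 TPM. Protein-coding Ntng2 transcripts had 0 TPM in replicate 1 and 0.55 TPM in replicate 2, so the Ntng2 level is uncertain.

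Of 22 listed netrin, RGM and draxin partners, 20 reached 1 TPM in both libraries (90.9%, beside 61.8% of protein-coding genes), with a median of 15.2 TPM. Maged1, which encodes a protein bound by Unc5 receptors, had 667 and 661 TPM. Pitpna, a lipid transfer protein bound by Dcc, had 79.1 and 78.7 TPM, and Flrt3, a ligand of Unc5 receptors, had 63.9 and 70.8 TPM. The lowest were Lrrc4, given above, and Dscam, a proposed netrin receptor, with 0.35 and 0.20 TPM.

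**Figure D4:**
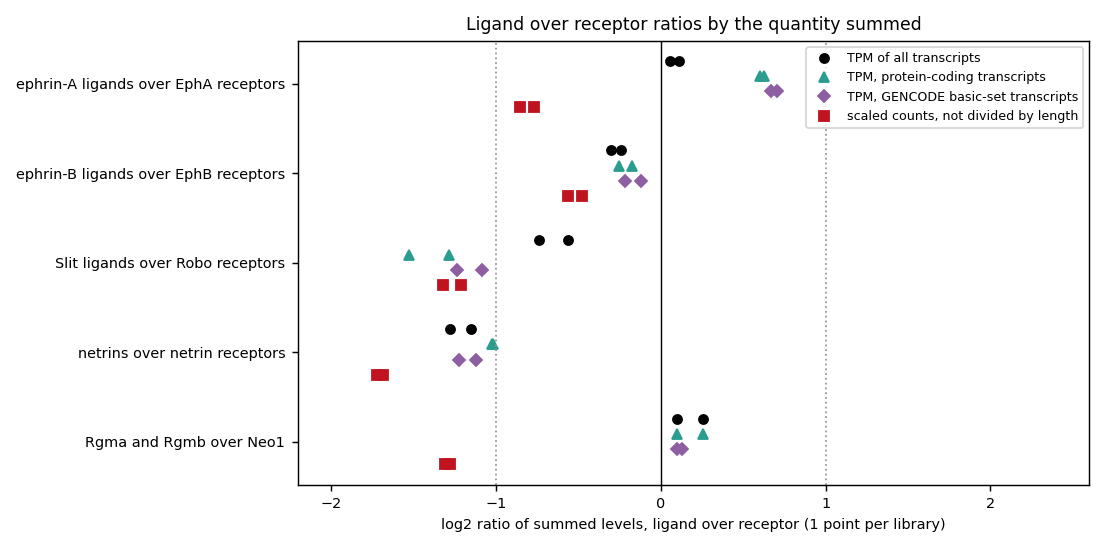
Log2 ratio of summed ligand over summed receptor level for 5 systems, 1 point per library, by the quantity summed; dotted lines mark the thresholds of -1 and 1. Ephrin-B over EphB stays between the dotted lines throughout, whereas Slit over Robo and RGM over Neo1 pass -1 in counts not divided by length.

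Over the 21 gene pairs examined, 9 were called, 4 with the first gene higher and 5 with it lower. The other 12 were not called. The pairs were chosen with earlier results of these data known. No share over other gene pairs was computed, so nothing is read from the number called. For 10 pairs no alternative moved the ratio across the threshold or turned the sign of its mean. Signs in single libraries could still turn among these pairs. In protein-coding transcripts, Efnb1 over Ephb3 was 0.04 in replicate 1 and -0.12 in replicate 2. Epha4 over Epha7 was -0.26 and 0.19 there.

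Cell type markers placed the members in a mixed tissue. The facial mesenchyme markers, from Msx1 (336 and 325 TPM) down to Twist1 (65.8 and 70.8 TPM), summed to 833 and 872 TPM. Surface epithelium summed to 276 and 272 TPM, from Krt14 (99.9 and 91.1 TPM) to Esrp1 (13.7 and 12.7 TPM). Endothelium summed to 191 and 185 TPM, from Egfl7 (83.6 and 80.5 TPM) to Tek (8.12 and 8.94 TPM). Blood was led by the embryonic globin Hbb-y (7730 and 7055 TPM), with Ptprc lowest (1.13 and 1.59 TPM). All members of these lists were at 1 TPM or more. Neurons, glia and muscle were also present, with summed levels of 551 and 423, 216 and 176, and 411 and 495 TPM. Their highest and lowest markers were Tubb3 (167 and 121 TPM) and Snap25 (9.11 and 5.97 TPM), Fabp7 (162 and 125 TPM) and Foxd3 (1.72 and 1.76 TPM), and Actc1 (181 and 215 TPM) and Myf5 (6.03 and 7.48 TPM). Forebrain markers were low, from Emx2 (19.7 and 17.1 TPM) to Eomes (0.53 and 0.07 TPM), and 5 of 6 reached 1 TPM in both libraries. No level can be assigned to a cell type from these data.

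The pools agreed closely on the members. None of the 40 members with a mean of 1 TPM or more had a log2 difference (replicate 1 minus replicate 2, 1 TPM added) over 1 or under -1, where 0.252% of 13491 protein-coding genes did. The widest, of Epha1, was 0.53 in size and lower in replicate 1. The median size was 0.09 for the members and 0.08 for protein-coding genes. No unadjusted p could be given for this count, since no test was possible.

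The differences were also set against counting error, which leaves out variation between pools of embryos. Taken with nothing added, the 95% binomial counting interval around the log2 difference of TPM excluded equal levels for 20 of the 40 members. Of these, 9 were higher in replicate 1 and 11 in replicate 2. The interval excluded equal levels for 35.3% of protein-coding genes. Depth-scaled counts divide each count by the library total and use no gene length. On that scale the interval excluded equal levels for 16 members and for 29.5% of protein-coding genes. Counting intervals narrow as counts grow and the members had the higher median level, so nothing is read from the gap between these shares. For 14 members, the intervals on both scales excluded equal levels with the same sign. For Slit1, Unc5c and Rgma, the interval excluded equal levels in TPM, and the difference had the opposite sign in counts.

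**Figure D5:**
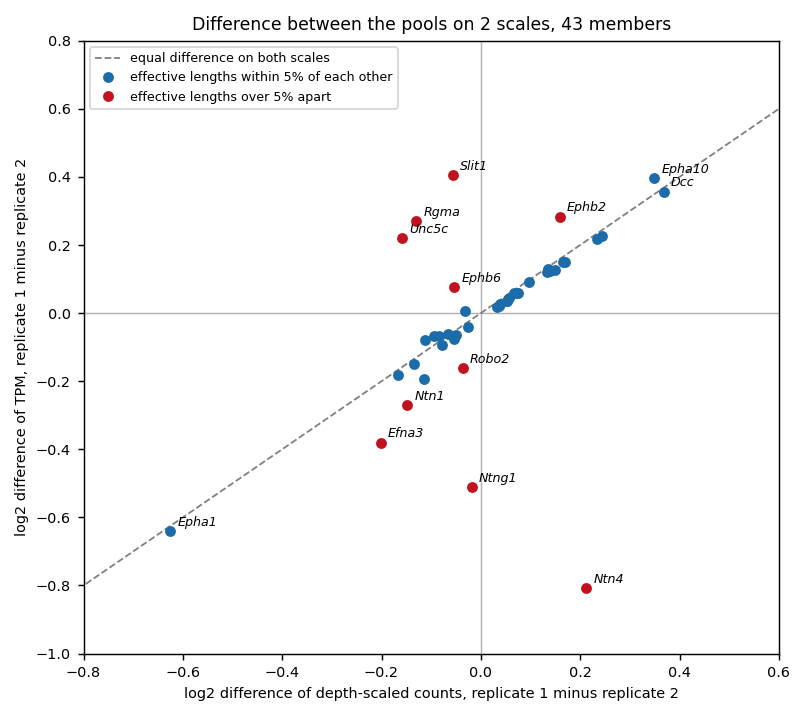
Log2 difference between the pools (replicate 1 minus replicate 2) of TPM on the vertical axis and of depth-scaled counts on the horizontal axis, 1 point per member, with a dashed line where both are equal. The 10 members whose effective lengths differ by over 5% between the libraries leave the line, and Ntn4 lies at -0.81 in TPM and 0.21 in counts.

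The genes that left this line had different effective lengths in the libraries, set by which transcripts received reads. Ntn4 had an effective length of 3023 bases in replicate 1 and 1505 in replicate 2, and its log2 difference was -0.81 in TPM and 0.21 in depth-scaled counts. In replicate 2, 10.1 of its 47 counts went to the 582-base transcript Ntn4-202, which then held 66.7% of the TPM. For Ntng1, 8.56 counts on the 327-base transcript Ntng1-201 in replicate 2 held 31.6% of the TPM, against 0 counts in replicate 1. The Ntng1 difference was -0.51 in TPM and -0.02 in depth-scaled counts. For Rgma, the 378-base transcript Rgma-203 had 16.6 counts and 27.5% of the TPM in replicate 1 and 0 counts in replicate 2, with a difference of 0.27 in TPM and -0.13 in depth-scaled counts. For Unc5c, the 357-base processed transcript Unc5c-206 held 40.4% of the TPM in replicate 1 on 29.1 counts and 16.3% in replicate 2 on 14.3 counts. The coding transcript Unc5c-202 held 39.3% and 52.0% of the TPM and 83.7% and 84.3% of the counts. The Unc5c difference was 0.22 in TPM and -0.16 in depth-scaled counts.

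Other differences were alike on both scales. Epha1 was lower in replicate 1, by -0.64 in TPM and -0.63 in depth-scaled counts, with the overlap with Zyx given above. Dcc was higher in replicate 1, by 0.36 in TPM (counting interval 0.14 to 0.57) and 0.37 in depth-scaled counts. The summed neuron markers were also higher in replicate 1, by 0.38, and all 6 moved that way. The sums of glia (0.29) and forebrain (0.26) markers were higher too, but not every marker was. Most of the glia difference lay in Fabp7 (162 and 125 TPM), and Foxd3 (1.72 and 1.76 TPM) went the other way. Among forebrain markers, Fezf2 (2.08 and 2.21 TPM) and Olig2 (1.42 and 2.49 TPM) went the other way. Muscle markers were lower in replicate 1 by -0.27. The part of these cell types in the Dcc difference was not tested. Epha10 was higher in replicate 1 by 0.40, with a counting interval of -0.034 to 0.83 that included equal levels. Efna1, Epha3 and Efnb3 were higher in replicate 1 by 0.12 to 0.15, and Efna5 was lower by -0.18.

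Promoter sequence was compared with the levels for the 37 members in the RefSeq table of promoter windows (GRCm38.p6), which run from 250 bases before to 50 after each start. The motif counted was CG, which reads the same on both strands and was found in 94.6% of all 32851 windows. Averaged over a gene's windows, members had a median of 24 CG, beside 14 over 16522 protein-coding genes. Members at a mean of 10 TPM or more had a median of 24 (22 genes) and those under it 21 (15 genes). Across the 37 genes, Spearman's rho between CG count and mean TPM was -0.02, a description over genes that share their libraries. Efnb1 and Epha8 are printed because level and CG count went opposite ways, with CG in capitals. The Efnb1 window (chrX:99135811-99136110, plus strand) holds 14 CG, a count that 36.3% of windows reach, and the gene averaged 59.8 ± 1.69 TPM. The Epha8 window (chr4:136956767-136957066, minus strand) holds 56 CG, a count that 0.195% of windows reach, at 1.27 ± 0.134 TPM.
Efnb1 promoter: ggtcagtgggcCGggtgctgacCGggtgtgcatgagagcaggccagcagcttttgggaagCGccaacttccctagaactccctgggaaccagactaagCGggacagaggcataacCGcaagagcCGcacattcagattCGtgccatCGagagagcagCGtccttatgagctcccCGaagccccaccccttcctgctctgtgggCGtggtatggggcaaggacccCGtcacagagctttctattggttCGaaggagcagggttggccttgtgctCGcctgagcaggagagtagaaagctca
Epha8 promoter: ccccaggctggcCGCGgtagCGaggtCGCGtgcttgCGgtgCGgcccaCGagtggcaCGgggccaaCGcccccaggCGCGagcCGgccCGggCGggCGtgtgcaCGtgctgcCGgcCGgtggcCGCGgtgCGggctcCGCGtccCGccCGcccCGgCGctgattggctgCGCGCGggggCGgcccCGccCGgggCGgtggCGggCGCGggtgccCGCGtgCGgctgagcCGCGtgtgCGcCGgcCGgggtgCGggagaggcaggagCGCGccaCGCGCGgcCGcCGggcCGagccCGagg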

How the data were processed

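Total RNA above a size limit, 10 ng per library, was sequenced from 2 pools, per the labels. Per the deposited notes, the build was mm10 and the annotation GENCODE M4. The program used for either step was not given in the sources used here, nor was strand or removal of ribosomal RNA. The deposited expected counts are estimated reads per gene or transcript, with reads that match several shared between them. The deposited TPM divides them by effective length and scales to the same total, spike-ins included, and a deposited posterior mean TPM and FPKM were used as alternatives. The deposited percent per transcript is its share of the gene's TPM.

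Names, types and coordinates came from GENCODE M21 (GRCm38). Summed TPM and log2 ratios were taken in each library. A ratio was called over 1 or under -1 in both. All 43 members were named, the 3 highest and 2 lowest of each partner list, the highest and lowest marker of each list, and, for members with a mean of 5 TPM or more, the leading transcript and others over 20% in both libraries; where other genes or transcripts are named, their values had been seen. The members, lists and pairs were chosen with earlier results of these data known. Counting intervals were exact at 95% (scipy 1.17.1), and a count of 3 was the limit for detection. Depth gives 0.172 and 0.121 TPM for 3 counts on 1000 bases in replicates 1 and 2. Alternatives included leaving out the kinase-inactive Epha10 and Ephb6, and used edgeR 4.0.16 (TMM) and DESeq2 1.42.0 size factors, R 4.3.3, Python 3.11.15, pandas 2.3.3 and numpy 2.4.6, with matplotlib 3.10.9 for plots.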

Additional observations from a re-analysis of the deposited data

How the results depend on the processing

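No paired analysis was possible because the series holds 1 group. The system ratios were recomputed with FPKM, the posterior mean TPM, TMM and DESeq2 scaling, counts without division by length, added TPM, coding transcripts and each library alone. In counts not divided by length, ephrin-A over EphA turned to -0.81, RGM over Neo1 to -1.29 and Slit over Robo passed the threshold at -1.26. Slit over Robo also passed it in protein-coding (-1.41) and basic-set transcripts (-1.16). Netrins over their receptors were no longer called without Ntn3 and Neo1 (-1.11). Without the kinase-inactive receptors, ephrin-B over EphB was -0.085. The basic-set values and the ratio without Ntn3 were added after the data were seen.

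Among pairs, signs turned for Efna5 over Epha3 in counts (-0.092), Ntng2 over Lrrc4 in counts (-0.68), Slit2 over Slit3 in protein-coding and basic-set transcripts (-0.13 in each), Robo1 over Robo2 with posterior mean TPM (-0.016) and without a replicate (-0.051 to 0.070), and Ntng1 over Lrrc4c without a replicate (-0.22 to 0.55). Of 229 pair alternatives, 207 kept the side of the threshold and the sign of the mean ratio. Between 7 and 11 of 21 pairs were called, 34 to 43 members reached the minimum level, and 0 differed between the pools by the rule, in every alternative run. The cause was not tested. The members under 1 TPM, with 16.1 to 47 counts, are those where depth limits the level most.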
